A study of Homo sapiens with 4 samples.

Results

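The 10 genes described here encode carriers that move amino acids across cell membranes. They are SLC7A1, SLC7A2, SLC7A5, SLC1A4, SLC1A5, SLC38A1, SLC38A2, SLC6A9, SLC36A1 and SLC43A1, taken by gene symbol from a table of 61806 genes, and each symbol matched 1 row. Transcripts were counted in 4 poly(A)-selected RNA libraries, 1 per condition, from 2 human cancer cell lines labelled wild type: MDA-MB-231, a breast cancer line (the breast line below), and MDA-MB-435 (the melanoma line). Each line was sampled as a control and after CPYPP, an inhibitor of the interaction between DOCK exchange factors and RAC, given at 10 µM for 6 h. What the control cells received is not given in the sources used here, so untreated below means only the control library of a line. The protocol text mentions MDA-MB-435 alone, so that dose and time are carried over to MDA-MB-231. Each line is a single established culture with no replicate, so intervals within a line cover counting error only, and p-values over both lines use the lines as the repeat of the treatment.

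Libraries held 17196385 to 22663954 counts. Marker transcripts separated the lines in part. Of the melanocyte genes, SOX10 had 3031 and 707 counts, S100B 1055 and 761 and DCT 658 and 464 before and after CPYPP in the melanoma line, against 3 or fewer in MDA-MB-231. TYR, TYRP1, MLANA and PMEL had 16 counts or fewer in the melanoma line. PMEL had more counts in MDA-MB-231, 34 and 29 against 13 and 4. MITF was present in both, with 1585 and 690 counts in MDA-MB-231 and 1405 and 809 in the melanoma line. In the MDA-MB-231 control MITF gave 1585 of the 1631 melanocyte marker counts. Of the epithelial genes, CDH1, EPCAM and KRT19 had 4 counts or fewer in the melanoma line, while KRT18 had 5740 and 4077, KRT7 625 and 391 and KRT8 522 and 310. Scaled to library size, the 8 melanocyte lineage markers summed to 71.2 and 44.0 CPM before and after CPYPP in the breast line and to 259 and 150.1 CPM in the melanoma line, and the 6 epithelial markers to 1776 and 1603 and to 289 and 258 CPM. The mesenchymal markers VIM, FN1, ZEB1 and CDH2 summed to 2028 and 1927 CPM in the breast line, above its epithelial sums. In the melanoma line they summed to 4763 and 4270 CPM. ZEB1 had 2038 and 2348 counts in MDA-MB-231 and 0 and 0 in the melanoma line. CDH2 went the other way, with 45 and 18 against 3657 and 2918. VIM and FN1 were well counted in both lines. The part of these differences in the results below was not tested. Markers of leukocytes, endothelium, fibroblasts and hepatocytes together summed to 20 to 295 counts, with DCN at 0 in all 4 libraries.

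Mammalian cells import amino acids through carriers with overlapping substrates, classed by what they carry and what drives them. Sodium-coupled carriers such as SLC38A1, SLC38A2, SLC1A4 and SLC1A5 bring in or exchange small neutral amino acids including glutamine, and exchangers such as SLC7A5 bring in leucine and other large neutral amino acids that activate mTORC1. When amino acids run short or the endoplasmic reticulum is stressed, the factor ATF4 is made in larger amounts and binds composite C/EBP-ATF elements in amino acid transporter and synthesis genes, SLC7A5 and SLC38A2 among its known targets. SLC7A5 and SLC1A5 are known for high levels in many cancers.

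The promoters were read from RefSeq (GRCh38.p14) as windows of 300 bases, 250 before and 50 after each annotated start, and 9 of the 10 genes matched, with 15 windows; SLC7A2 had no entry. The letters TGATGNAA, the core of the C/EBP-ATF composite element, were searched on both strands. They stood in the windows of SLC1A4, SLC1A5, SLC38A1 and SLC7A1, that is in 4 of 15 windows, against 3.62% of all 35116 windows. The stretches of 30 bases around them are shown because these genes can be set beside the changes described further on. Capitals mark the match, and each is written on the strand of its gene:
SLC1A4 (chr2:64989381-64989410, plus strand): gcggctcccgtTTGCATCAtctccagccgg
SLC1A5 (chr19:46784893-46784922, minus strand): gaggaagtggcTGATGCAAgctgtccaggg
SLC38A1 (chr12:46266502-46266531, minus strand): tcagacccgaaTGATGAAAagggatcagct
SLC7A1 (chr13:29595663-29595692, minus strand): gggcgcactgcTGATGAAAcctggcgccgg
In GENCODE v29 the stretch of SLC38A1 lay in an intron of the gene and the other 3 overlapped an exon in part. The matches began 7 bases before the start in SLC1A4, 97 before in SLC1A5, 4 before in SLC38A1 and 8 after in SLC7A1. Those of SLC1A4, SLC1A5 and SLC38A1 belonged to a start inside the gene rather than its outermost one. The core of the antioxidant response element, TGACNNNGC, was in 3 member windows (SLC1A5, SLC7A1 and SLC7A5) and in 13.3% of all windows, and the heat shock element core GAANNTTC was in 1 (SLC38A1) and in 6.77%. In these windows no match overlapped that of another motif.

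The upstream 250 bases of SLC38A2 and SLC7A5 are shown because these 2 were called higher in the melanoma line. No searched motif was found in the window of SLC38A2, and that of SLC7A5 held TGACNNNGC across the start. Bases outside the windows were not searched, so an element elsewhere in either gene would not have been found. The runs have no capitals, as neither holds a whole match:
SLC38A2 (chr12:46372774-46373023, minus strand): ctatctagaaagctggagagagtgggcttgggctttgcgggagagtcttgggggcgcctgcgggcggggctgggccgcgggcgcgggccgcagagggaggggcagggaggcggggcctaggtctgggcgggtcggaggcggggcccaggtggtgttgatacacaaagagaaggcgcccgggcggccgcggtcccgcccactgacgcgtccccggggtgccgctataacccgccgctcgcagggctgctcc
SLC7A5 (chr16:87869508-87869757, minus strand): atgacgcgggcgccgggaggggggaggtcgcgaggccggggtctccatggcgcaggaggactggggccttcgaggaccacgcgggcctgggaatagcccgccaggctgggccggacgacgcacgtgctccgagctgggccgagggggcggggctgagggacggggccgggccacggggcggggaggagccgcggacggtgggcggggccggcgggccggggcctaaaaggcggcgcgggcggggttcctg
The match of SLC7A5 is in capitals in the stretch chr16:87869490-87869519 (minus strand): gcggggttccTGACGCAGCtgcgggcggcg. G and C made up 73.6% of the upstream bases of SLC38A2 and 79.6% of those of SLC7A5.

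All positions of genes below are as the count table gives them, and they overlap GRCh38 annotation for all 10 genes, although the submitters' processing notes name GRCh37.p13. Levels are given as RPKM, normalized counts scaled to exon length and library size, which allows genes to be compared. Scaling factors were computed within each line, so levels and ratios between the lines are not corrected for a different RNA make-up. No other scaling of the ratios between the lines was run, and the counting intervals do not cover this. For each gene the 4 values are given in the order breast control, breast CPYPP, melanoma control, melanoma CPYPP, and 2 folds in the order breast line, melanoma line. Fold changes are ratios of normalized counts, CPYPP over control within a line, with a 95% counting interval in parentheses. A gene was called within a line when its fold was over 2 either way and the binomial test of the 2 libraries, adjusted over all genes, was under 0.05. That test compares libraries, not conditions. Values are shares of a library, so a fall in 1 transcript cannot be told apart from a rise in the rest of the RNA, nor fewer cells from less RNA per cell.

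Of the 10 genes, 0 were called higher and 0 lower in MDA-MB-231, where 4.22% of 16441 tested genes were called higher and 3.09% lower. In the melanoma line SLC7A2 was too low to test, with 1 and 0 counts, and 2 of 9 tested genes, SLC7A5 and SLC38A2, were called higher and 0 lower, against 3.17% higher and 6.52% lower of 16527. Changes smaller than 2-fold were common among them: the counting interval lay above 1 for 7 of 10 in MDA-MB-231 and for 9 of 9 in the melanoma line, with 26.3% and 29.0% of all tested genes on that side. It lay below 1 for 2 of 10 in MDA-MB-231, SLC7A5 and SLC7A2, where 23.6% of all tested genes did. In both lines at once it lay above 1 for 7 of 9 genes, against 18.2% of the 14262 genes tested in both. Scaling by total counts instead left 7 of 9 above 1 in the melanoma line, without SLC38A1 and SLC43A1, and 5 of 9 in both lines, with 18.6% and 12.2% of all tested genes. Abundant genes have narrow intervals, so these shares also depend on level. The median log2 fold change was 0.38 in MDA-MB-231 and 0.54 in the melanoma line, and over all tested genes -0.01 and -0.02.

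**Figure D1:**
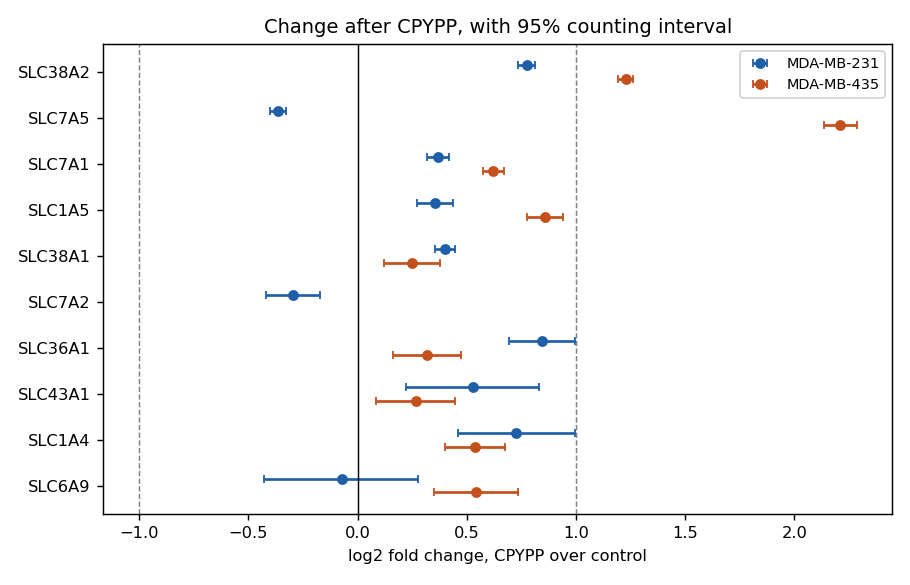
Log2 fold change of each gene, CPYPP over control, in each line; points are the ratio of 1 library to 1 library and bars the 95% counting interval. SLC7A5 lies on opposite sides of 0 in the 2 lines, SLC38A2 on the higher side in both, and SLC7A2 has a value in MDA-MB-231 only.

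SLC7A5 (ENSG00000103257, chromosome 16, 87830023 to 87869507, minus strand) encodes LAT1, the exchanger of large neutral amino acids such as leucine, which works as a pair with the heavy chain SLC3A2. It had 18458 counts in untreated MDA-MB-231, 10506 after CPYPP, 1888 in the melanoma control and 6777 after CPYPP. Per length this was 169, 131, 16.6 and 76.9 RPKM. Untreated MDA-MB-231 was 10.2-fold (9.71 to 10.7) above the untreated melanoma line, and the 2 CPYPP libraries were closer to each other than the 2 controls. The fold was 0.777 (0.758 to 0.796) in MDA-MB-231 and 4.63 (4.4 to 4.87) in the melanoma line, on opposite sides of 1. The fold in the melanoma line was 5.96 times (5.63 to 6.30) that in MDA-MB-231, the largest such ratio among the 9 genes with both values. A counting interval below 1 in MDA-MB-231 and above 1 in the melanoma line was found for 3.72% of the 14262 genes. Of all tested genes, 99.4% had a lower log2 fold change in the melanoma line and 19.7% in MDA-MB-231. A difference between the lines cannot be tested with 1 library per condition. The copies SLC7A5P1 and SLC7A5P2 had 0 counts in every library.

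Its partner SLC3A2 (4F2hc), which is not one of the 10, had 6427, 6776, 2767 and 10991 counts in the same order. Its fold was 1.44 (1.39 to 1.49) in the breast line and 5.12 (4.91 to 5.34) in the melanoma line, where SLC7A5 was at 4.63. The ratio of SLC7A5 to SLC3A2 in RPKM was 3.85 (3.75 to 3.96) in the MDA-MB-231 control and 2.08 (2.02 to 2.15) after CPYPP. In the melanoma line it was 0.915 (0.863 to 0.971) in the control and 0.827 (0.803 to 0.853) after CPYPP. SLC7A11, the light chain of the cystine and glutamate exchanger and another partner of SLC3A2, had 5380, 18742, 845 and 13770 counts. The ratio of SLC7A11 to SLC3A2 went from 0.555 to 1.83 in MDA-MB-231 and from 0.202 to 0.830 in the melanoma line. Relative to the heavy chain, SLC7A11 was thus higher after CPYPP in both lines. SLC7A5 was lower in both, but only slightly in the melanoma line, where 1 library is set against 1.

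SLC43A1 (ENSG00000149150, chromosome 11, 57484534 to 57515780, minus strand) encodes LAT3, a sodium-independent carrier of large neutral amino acids that needs no heavy chain. It had 177, 187, 525 and 490 counts, or 2.19, 3.16, 6.24 and 7.51 RPKM. The melanoma libraries were both above the MDA-MB-231 libraries, and untreated melanoma cells were 2.85-fold (2.40 to 3.40) above untreated MDA-MB-231. Its fold after CPYPP was 1.44 (1.17 to 1.78) and 1.20 (1.06 to 1.36). The RPKM of SLC7A5 was 77.2 times that of SLC43A1 in the MDA-MB-231 control and 41.6 times after CPYPP, against 2.66 and 10.2 times in the melanoma line.

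SLC38A2 (ENSG00000134294, chromosome 12, 46358188 to 46372773, minus strand) encodes SNAT2, a sodium-coupled carrier of small neutral amino acids of system A that responds to amino acid supply. It had 9686, 12133, 11202 and 20334 counts, or 65, 111, 72.1 and 169 RPKM. Untreated levels were close, the melanoma line over the breast line at a fold of 1.11 (1.08 to 1.14), and both CPYPP libraries stood above both controls in RPKM. Its fold was 1.71 (1.66 to 1.76) in MDA-MB-231 and 2.34 (2.29 to 2.40) in the melanoma line. Of all tested genes, 91.9% and 97.4% had a lower log2 fold change. SLC38A2 had the highest RPKM of the 10 genes in both melanoma libraries.

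SLC38A1 (ENSG00000111371, chromosome 12, 46183063 to 46270017, minus strand) encodes SNAT1, the related glutamine carrier whose gene lies beside SLC38A2. It had 8202, 7933, 1032 and 951 counts, or 35.7, 47.2, 4.32 and 5.13 RPKM. Untreated MDA-MB-231 was 8.28-fold (7.76 to 8.84) above untreated melanoma cells. Its fold after CPYPP was 1.32 (1.28 to 1.36) and 1.19 (1.09 to 1.30). The RPKM ratio of SLC38A2 to SLC38A1 was 1.82 and 2.35 before and after CPYPP in the breast line and 16.7 and 32.9 in the melanoma line, so SLC38A2 stood above SLC38A1 in all 4 libraries and further above in the melanoma line.

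SLC7A1 (ENSG00000139514, chromosome 13, 29509414 to 29595688, minus strand) encodes CAT1, the main carrier of arginine, lysine and ornithine in most cells. It had 6654, 6290, 6270 and 7481 counts, or 37.8, 48.7, 34.2 and 52.6 RPKM. In RPKM both CPYPP libraries stood above both controls, with folds of 1.29 (1.25 to 1.34) and 1.54 (1.49 to 1.59). Untreated MDA-MB-231 was 1.11-fold above untreated melanoma cells.

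SLC7A2 (ENSG00000003989, chromosome 8, 17497088 to 17570573, plus strand) encodes CAT2, a second carrier of cationic amino acids. It had 1432 and 855 counts in MDA-MB-231, or 7.91 and 6.44 RPKM, and 1 and 0 counts in the melanoma line, where 0 allows up to 3 counts or 0.0205 RPKM. In these libraries it was thus detected above the floor in MDA-MB-231 alone: the ratio of untreated MDA-MB-231 to untreated melanoma cells was 1492 (267 to 58964) with no floor applied, resting on 1 count. The fold in MDA-MB-231 was 0.815 (0.748 to 0.888), below 1 while that of SLC7A1 was above 1. The RPKM ratio of SLC7A1 to SLC7A2 went from 4.78 (4.51 to 5.06) to 7.56 (7.04 to 8.13).

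SLC1A5 (ENSG00000105281, chromosome 19, 46774883 to 46788594, minus strand) encodes ASCT2, a sodium-dependent exchanger known for glutamine uptake in cancer cells. It had 2442, 2285, 1986 and 2790 counts, or 32, 40.9, 25 and 45.2 RPKM. In RPKM both CPYPP libraries stood above both controls, with folds of 1.28 (1.21 to 1.35) and 1.81 (1.71 to 1.92).

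SLC1A4 (ENSG00000115902, chromosome 2, 64988477 to 65023865, plus strand) encodes ASCT1, the relative that exchanges alanine, serine, cysteine and threonine. It had 213, 258, 817 and 920 counts, or 1.34, 2.21, 4.93 and 7.16 RPKM. Untreated melanoma cells were 3.68-fold (3.16 to 4.30) above untreated MDA-MB-231, the reverse order of SLC1A5, which was 1.28-fold higher in MDA-MB-231. The fold after CPYPP was 1.65 (1.37 to 1.99) and 1.45 (1.32 to 1.6). The RPKM ratio of SLC1A5 to SLC1A4 was 23.9 in the breast control and 18.4 after CPYPP, and 5.06 and 6.32 in the melanoma line. LINC02245, on the opposite strand over the whole of SLC1A4, had 3 to 15 counts.

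SLC36A1 (ENSG00000123643, chromosome 5, 151437046 to 151492379, plus strand) encodes PAT1, a proton-coupled carrier of small neutral amino acids on lysosomes and the cell surface. It had 634, 833, 681 and 658 counts, or 3.97, 7.12, 4.09 and 5.10 RPKM. With this scaling, untreated levels were alike within counting error, at a fold of 1.03 (0.924 to 1.15). The fold was 1.79 (1.62 to 1.99) in MDA-MB-231, the highest fold of the 10 genes in that line, and 1.25 (1.12 to 1.39) in the melanoma line. In MDA-MB-231 its interval overlapped those of SLC38A2 (1.66 to 1.76), SLC1A4 (1.37 to 1.99) and SLC43A1 (1.17 to 1.78). The ratio of the melanoma fold to the breast fold was 0.695 (0.599 to 0.806), the opposite side of 1 from SLC7A5.

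SLC6A9 (ENSG00000196517, chromosome 1, 43991500 to 44031467, minus strand) encodes GlyT1, a sodium- and chloride-coupled glycine carrier. It had 168, 117, 423 and 478 counts, or 1.40, 1.33, 3.38 and 4.92 RPKM. Untreated melanoma cells were 2.42-fold (2.02 to 2.91) above untreated MDA-MB-231. Its fold was 0.951 (0.744 to 1.21) in MDA-MB-231, an interval that holds 1, and 1.46 (1.28 to 1.66) in the melanoma line. Genes on the opposite strand share bases with it, and since no strand setting of the counting is stated, reads of the shared bases may belong to either gene: CCDC24 had 44 to 96 counts and ENSG00000230615 49 to 98, which is not small beside SLC6A9 in MDA-MB-231.

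**Figure D2:**
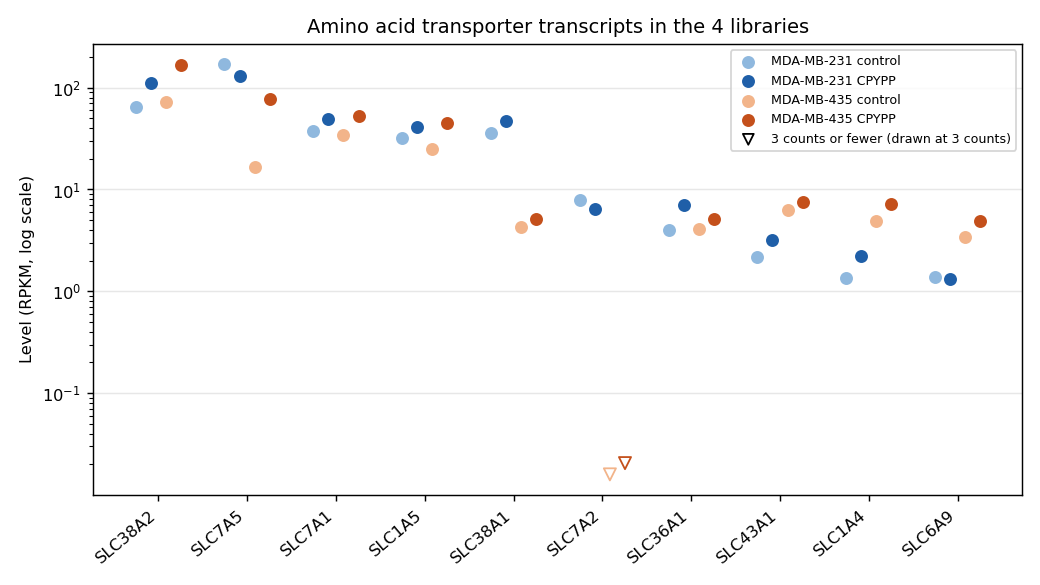
Level of each gene (RPKM, log scale) in the 4 libraries, 1 point per library, with open triangles at 3 counts for SLC7A2 in MDA-MB-435. SLC7A5 and SLC38A1 stand higher in MDA-MB-231, and SLC43A1, SLC1A4 and SLC6A9 in MDA-MB-435.

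Set in order of RPKM, the untreated lines differed in their leading carriers. MDA-MB-231 was led by SLC7A5, SLC38A2, SLC7A1, SLC38A1 and SLC1A5, all between 32 and 169 RPKM, and the melanoma line by SLC38A2, SLC7A1, SLC1A5 and SLC7A5, between 16.6 and 72.1 RPKM. After CPYPP SLC7A5 passed SLC7A1 and SLC1A5 in the melanoma line. Neighbours that did not differ beyond counting error were SLC6A9 and SLC1A4 in the MDA-MB-231 control, SLC7A1 and SLC38A1 in MDA-MB-231 after CPYPP, SLC38A1 and SLC36A1 in the melanoma control, and SLC43A1 and SLC1A4, SLC38A1 and SLC36A1, and SLC36A1 and SLC6A9 in the melanoma line after CPYPP. Between the untreated lines, 3 of the 10 were called higher in the melanoma line (SLC1A4, SLC43A1 and SLC6A9) and 3 lower (SLC7A5, SLC38A1 and SLC7A2). Of 18269 tested genes, 22.9% were called higher and 20.2% lower. Scaling was set within each line here too, so these calls are not corrected for a different RNA make-up of the lines.

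The 10 genes together took 0.215% of all counts in the MDA-MB-231 control (95% exact binomial interval 0.213 to 0.217) and 0.241% after CPYPP (0.238 to 0.243), and 0.110% (0.108 to 0.111) and 0.210% (0.208 to 0.212) in the melanoma line. Their summed level was 356 and 400 RPKM in the breast line and 171 and 373 RPKM in the melanoma line, so the melanoma control stood apart from the other 3 libraries. The make-up also differed. SLC7A5 gave 38.4% (38 to 38.8) of these counts in the MDA-MB-231 control and 25.4% (25 to 25.8) after CPYPP, against 7.61% (7.28 to 7.94) and 16.6% (16.2 to 16.9) in the melanoma line. SLC38A2 gave 20.2% (19.8 to 20.5) and 29.3% (28.9 to 29.7) in the breast line, and 45.1% (44.5 to 45.7) and 49.7% (49.3 to 50.2) in the melanoma line.

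**Figure D3:**
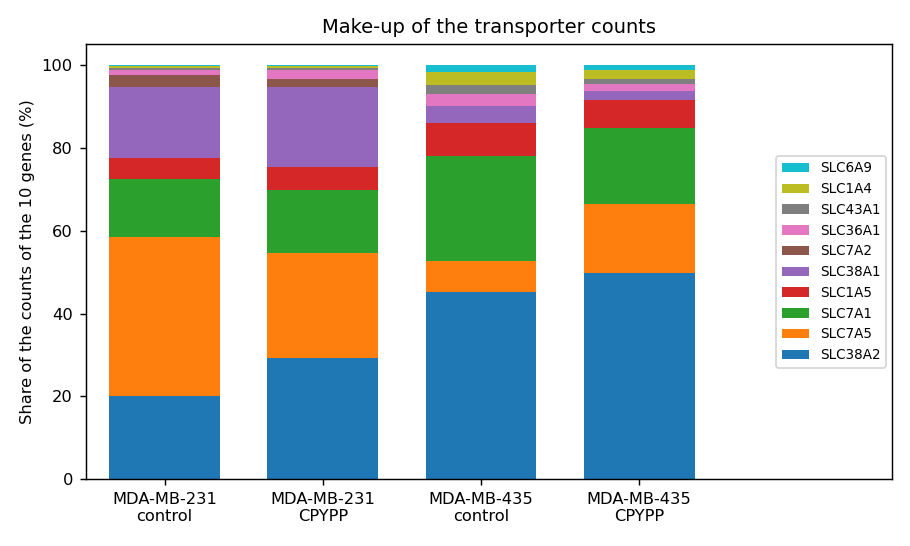
Share of the counts of the 10 genes taken by each gene (%, stacked bars) in the 4 libraries. SLC38A2 has the largest share in 3 of the 4 libraries and SLC7A5 in the MDA-MB-231 control.

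**Figure D4:**
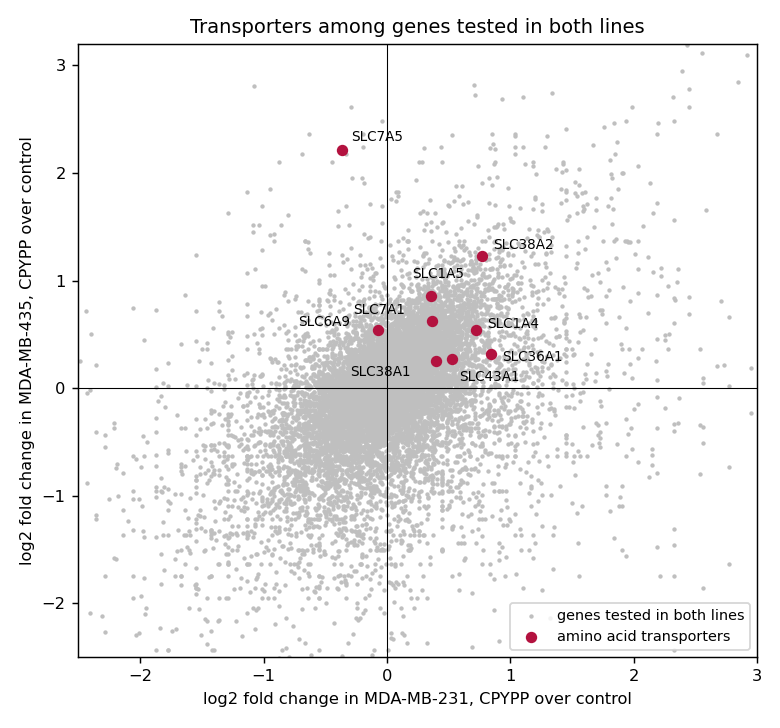
Log2 fold change after CPYPP in MDA-MB-435 against that in MDA-MB-231 for genes tested in both lines (grey) and the transporters (red); 75 genes lie outside the plotted range. SLC7A5 lies in the upper left, lower in MDA-MB-231 and higher in MDA-MB-435, and SLC38A2 in the upper right.

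Which genes changed on average over both lines was asked with edgeR's quasi-likelihood test on the 4 libraries. The fit had the cell line as a block, 1 residual degree of freedom and Benjamini-Hochberg adjustment over 16801 genes. The test concerns the average change, so a gene can pass with unlike changes in the 2 lines. SLC38A2, SLC1A5 and SLC7A1 rose, 3 of 10, and 0 fell, against 4.39% of tested genes higher and 2.85% lower. At an unadjusted p under 0.05 there were 6 of 10 higher and 0 lower, against 10.7% and 10.4% of all tested genes. The DESeq2 Wald test called 5 higher and 0 lower, against 10.1% and 6.91% of the 12566 genes given an adjusted p. The common log2 fold change was 0.96 (SE 0.126, adjusted p = 0.00181) for SLC38A2, 0.56 (SE 0.128, adjusted p = 0.0269) for SLC1A5 and 0.45 (SE 0.111, adjusted p = 0.0366) for SLC7A1, each higher in 2 of 2 lines. These 3 calls were lost when the line block was left out (adjusted p of about 1.00), and held under the 6 other settings tried.

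SLC1A4 had a common log2 fold change of 0.58 (SE 0.157) and an adjusted p of 0.0536, and over the alternatives its adjusted p ran from 0.0058 to 1.00. SLC36A1 was at 0.54 (SE 0.168, adjusted p = 0.0854), SLC43A1 at 0.34 (SE 0.180, adjusted p = 0.325) and SLC38A1 at 0.29 (SE 0.114, adjusted p = 0.175). SLC7A5, whose folds lay on opposite sides of 1, was at 0.86 with an SE of 0.438 and did not pass (adjusted p = 0.298). SLC6A9 was at 0.22 (SE 0.203, adjusted p = 0.604) and SLC7A2 at -0.32 (SE 0.213, adjusted p = 0.450), the last resting on MDA-MB-231 alone. The median over the 10 genes was 0.49 and over all tested genes -0.04.

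The other plasma membrane amino acid transporters were mostly low or not detected: of 36 genes, 9 had 0 counts in all libraries, 10 had 9 or fewer and 17 reached 10. In the test over both lines 3 of 16 rose and 0 fell, against 4.39% and 2.85% of all tested genes. SLC7A11 had a common log2 fold change of 3.25 (adjusted p = 0.000956), SLC3A2 of 1.39 (adjusted p = 0.0243) and SLC6A6, the taurine carrier, of 0.95 (adjusted p = 0.0025). SLC6A6 had folds of 2.32 (2.21 to 2.42) in MDA-MB-231 and 1.72 (1.64 to 1.80) in the melanoma line. Within lines, 3 of 15 were called higher in MDA-MB-231, namely SLC6A6, SLC7A11 and SLC16A10 (2.08-fold, named after its values were seen), and 2 of 12 in the melanoma line, SLC7A11 and SLC3A2. Of all tested genes, 4.22% and 3.17% were called higher in these lines. Of 192 tested SLC genes that carry other substrates, 9 (4.69%) rose and 5 (2.60%) fell, with a median of -0.04. These shares were near those of all tested genes, 4.39% and 2.85%.

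Carriers of lysosomes and mitochondria had a median common log2 fold change of -0.04. Of 19 tested, 1 rose and 1 fell (5.26% each), against 4.39% and 2.85% of all tested genes. The 2 genes were SLC38A7, a lysosomal glutamine and asparagine carrier, at 0.61 (adjusted p = 0.0274) and SFXN3, a mitochondrial serine carrier, at -0.51 (adjusted p = 0.027). Among 33 genes of amino acid sensing by mTORC1, 5 rose and 0 fell: SESN2, a leucine sensor that restrains mTORC1, at 3.52, SESN3, its relative, at 1.72, FNIP2 at 0.92, FNIP1 at 0.87, both partners of folliculin, and BMT2, the SAM sensor also called SAMTOR, at 0.73 (named after its values were seen). The median of that list was 0.01, and 15.2% of it rose against 4.39% of all tested genes.

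Of 31 genes of the amino acid response through GCN2 and ATF4, 13 rose in the test over both lines and 0 fell. Their median was 0.58, and 4.39% of all tested genes rose and 2.85% fell. CHAC1, which degrades glutathione, was at 4.55 (adjusted p = 0.00127), the factor ATF3 at 3.50 (adjusted p = 0.00135), ASNS, which makes asparagine, at 2.78 (adjusted p = 0.00063) and the factor DDIT3 (CHOP) at 1.64 (adjusted p = 0.00427). Within lines 5 of 31 were called higher in MDA-MB-231 and 13 of 30 in the melanoma line, and 0 lower in either, beside 4.22% and 3.17% higher and 3.09% and 6.52% lower of all tested genes. The transporters gave 0 of 10 and 2 of 9 higher. Whether this list differs from the transporters was not tested.

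**Figure D5:**
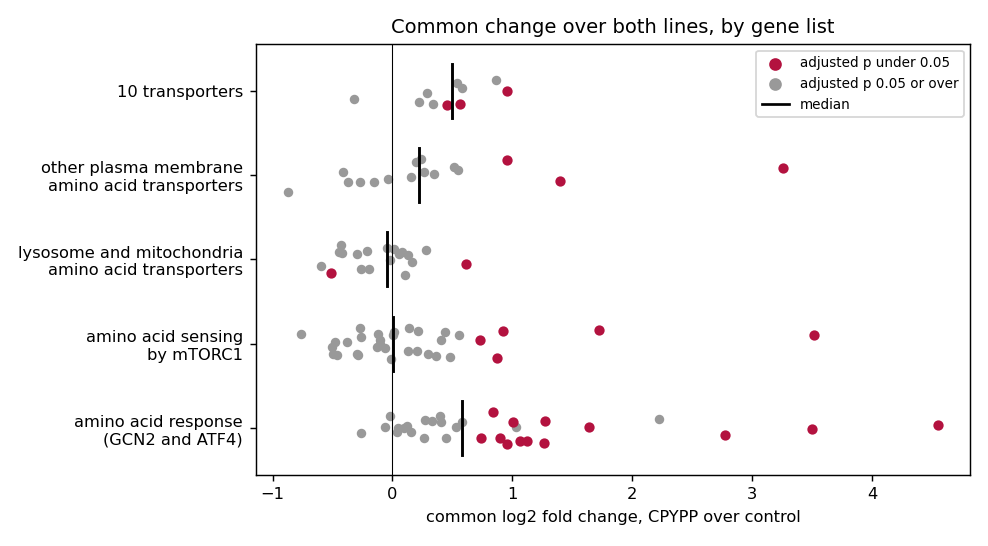
Common log2 fold change over both lines for the tested genes of each list, 1 point per gene, red where the adjusted p is under 0.05, with a bar at the median. The medians are 0.49 for the 10 transporters and 0.58 for the amino acid response, and the farthest point, CHAC1, is at 4.55.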

How the data were processed

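Total RNA was poly(A)-selected and sequenced. The deposited table holds whole-number counts per gene, which the authors left unnormalized, with positions and exon lengths; the submitters' processing notes name cutadapt 1.9.1, HISAT2 2.2.1, HTSeq 0.6.1, DESeq2 and GRCh37.p13, and no strand setting is given in the sources used here. Of 58254 identifiers found in GENCODE v29 (GRCh38), 58241 overlap its position.

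Groups were taken from the sample labels. Counts were scaled by TMM factors (edgeR 4.0.16, R 4.3.3) computed within each line over genes with at least 10 counts in 1 of its libraries. For folds within a line, a count under 3 was raised to 3. Within a line, intervals are Clopper-Pearson at 95% and calls need a fold over 2 and an adjusted p under 0.05 (binomial test); intervals cover counting error only. The common effect used edgeR's quasi-likelihood test with TMM over the 4 libraries. DESeq2 1.42.0 was an alternative.

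The 10 members, the gene lists and the tests were chosen with earlier results of these data known. All members are named, with SLC3A2 and SLC7A11; from the other plasma membrane carriers up to 12 genes, and from each other amino acid list up to 4, past the threshold with the largest common change; also genes sharing bases with members and their copies, 1 of which is not reported here. Libraries held 17196385 to 22663954 counts, so 3 counts correspond to 0.126 to 0.179 CPM. On simulated data with 200 changed genes, the binomial test with a fold over 1.5 recovered 98% in MDA-MB-231 and 98.5% in the melanoma line and the common test 95%, with 4, 4 and 10 false calls. The changed genes were drawn from well-counted genes, and the within-line counts had counting error only. In the common simulation both lines had the same levels and the same effect. These figures therefore do not cover variation between cultures within a line, or lines that respond differently. Protein identity was planned and not computed here.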

Additional observations from a re-analysis of the deposited data

Results flagged for a closer look

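The values of SLC7A5 lay on opposite sides of 1 in the 2 lines: its fold, CPYPP over control, was 0.777 in MDA-MB-231 and 4.63 in the melanoma line, 1 library per condition. The difference was not tested.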

How the results depend on the processing

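Control and CPYPP libraries were paired by cell line in the test over both lines. In MDA-MB-231, where 694 genes were called higher and 508 lower, the counts were 457 and 271 with at least 10 counts in both libraries, 1406 and 1095 at a fold over 1.5 (3 of the 10 transporters higher), and 893 lower at a fold over 2 with no test. An assumed biological coefficient of variation of 0.2 left 113 higher and 43 lower, and 0.4 left 4 and 0. In MDA-MB-435 (524 higher, 1078 lower), 602 were lower with at least 10 counts in both libraries. A fold over 1.5 gave 1372 and 1883, with 4 transporters higher. A coefficient of 0.2 gave 124 and 147, with 1 transporter, SLC7A5, and 0.4 gave 13 and 1, with 0 transporters; at 0.2 the adjusted p of SLC38A2 was 0.118.

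Over both lines (3 transporters; 737 genes higher, 478 lower), DESeq2 size factors gave 5 transporters and 729 genes lower, total counts 1087 lower, no filter 6 transporters and 850 lower, and the DESeq2 Wald test 5 transporters, 1263 higher and 868 lower. Without the filter SLC7A5 passed (adjusted p = 2.11e-09); the cause was not tested. TMM within each line, chosen after seeing the data, gave 5 transporters and 1120 higher. Without the line block edgeR called 0 transporters and 0 genes higher or lower, with 167 genes at an unadjusted p under 0.05. Leaving out either MDA-MB-435 library gave -0.36 for SLC7A5 and -0.073 for SLC6A9, the changes in MDA-MB-231. Leaving out an MDA-MB-231 library gave 2.21 and 0.54, the changes in MDA-MB-435. With the line block this outcome is fixed in advance, as a line left with 1 library adds nothing to the estimate. The planned legacy dispersion estimation is the default of the version used, so the newer one was run instead. With total counts, log2 fold changes shifted by -0.149 in MDA-MB-435 and calls there were 19.9% higher against 32.7%, and over both lines 43.7% against 60.7%. Assumed variation also moved the split, to 72.4% and 100% from 57.7% in MDA-MB-231 and to 45.8% and 92.9% in MDA-MB-435. No scaling turned the direction of a transporter within a line. By total counts, added after seeing the data, counting intervals lay above 1 for 7 of 9 transporters in MDA-MB-435 and 5 of 9 in both lines; DESeq2 size factors, upper quartile and TMM over the 4 libraries left 9 and 7. With 1 library per condition, counting error is a lower limit of the true error.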
